A study of Mus musculus with 29 samples.

Results

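The 10 genes described here take up fatty acids and oxidise them in muscle, or hold back the competing use of glucose: Cd36, Fabp3, Cpt1b, Cpt2, Acadm, Acadl, Acadvl, Hadha, Hadhb and Pdk4. They were taken by symbol from a table of 22537 gene symbols, and all 10 passed the filter on low counts in every comparison. The whole tibialis anterior (TA), a fast muscle of the lower hindlimb, was the source of the poly-A RNA, which was sequenced from male C57BL/6 mice of 3 ages: 7 mice at 6 months (6m), 7 at 24 months (24m) and 8 at 28 months or older (28m). No group carried a transgene or received a treatment. Per the paper, the muscle was taken after tests of physical function, treadmill and voluntary wheel running among them. The 24m mice shared a sequencing run with the 6m mice (the first run). The 28m mice shared a later run (the second run) with new libraries made from the same 7 mice of 6m, which gave 29 libraries from 22 mice. Each old group was therefore compared with the 6m libraries of its own run, and the 2 comparisons rest on the same 6m mice. Total counts per library were 17633475 to 33499162, with a median of 24250878. Age groups were separate mice at a single age each, so mice were not followed over time.

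Long-chain fatty acids reach muscle from the blood with the help of the membrane protein CD36 and are carried through the cytosol by FABP3. They are bound to coenzyme A, passed into mitochondria as carnitine esters by CPT1 and CPT2, and shortened in a repeated cycle that opens with an acyl-CoA dehydrogenase (ACADVL, ACADL or ACADM, in order of falling chain length) and continues on the trifunctional protein, whose alpha and beta subunits are HADHA and HADHB. PDK4 phosphorylates and inactivates the pyruvate dehydrogenase complex, which spares glucose when fat is burned, and is known for its rise in fasted muscle.

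At 28m, 2 of the 10 genes differed from 6m, both of them lower: Cd36, by a modest amount, and Cpt1b, by more but from very few reads. None of the 10 was called at 24m. The acyl-CoA dehydrogenases had higher means at 28m, and the trifunctional protein genes and Cpt2 lower ones, none of which passed the test. Pdk4 varied widely between mice of every age. A gene is called here when its p-value from the quasi-likelihood test of edgeR, adjusted across every gene tested by the method of Benjamini and Hochberg, is under 0.05. By that rule 47.3% of all 12994 genes tested were called at 28m, 22.9% lower and 24.3% higher, and 2 of 10 is a smaller share than that. The median log2 fold change of the 10 at 28m was 0.02, with 5 above and 5 below 0, against 0.01 for all genes tested. At 24m the rule called 11 of 13103 genes (0.084%), with 1546 at an unadjusted p under 0.05, and DESeq2 called 215, none of them among the 10 genes. The median log2 fold change of the 10 at 24m was -0.17, with 2 above 0 and 8 below, against 0.03 for all genes. None of the 10 had an absolute log2 fold change of 1 or more in either comparison. The plot of all libraries and the plot of age effects show these values.

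**Figure D1:**
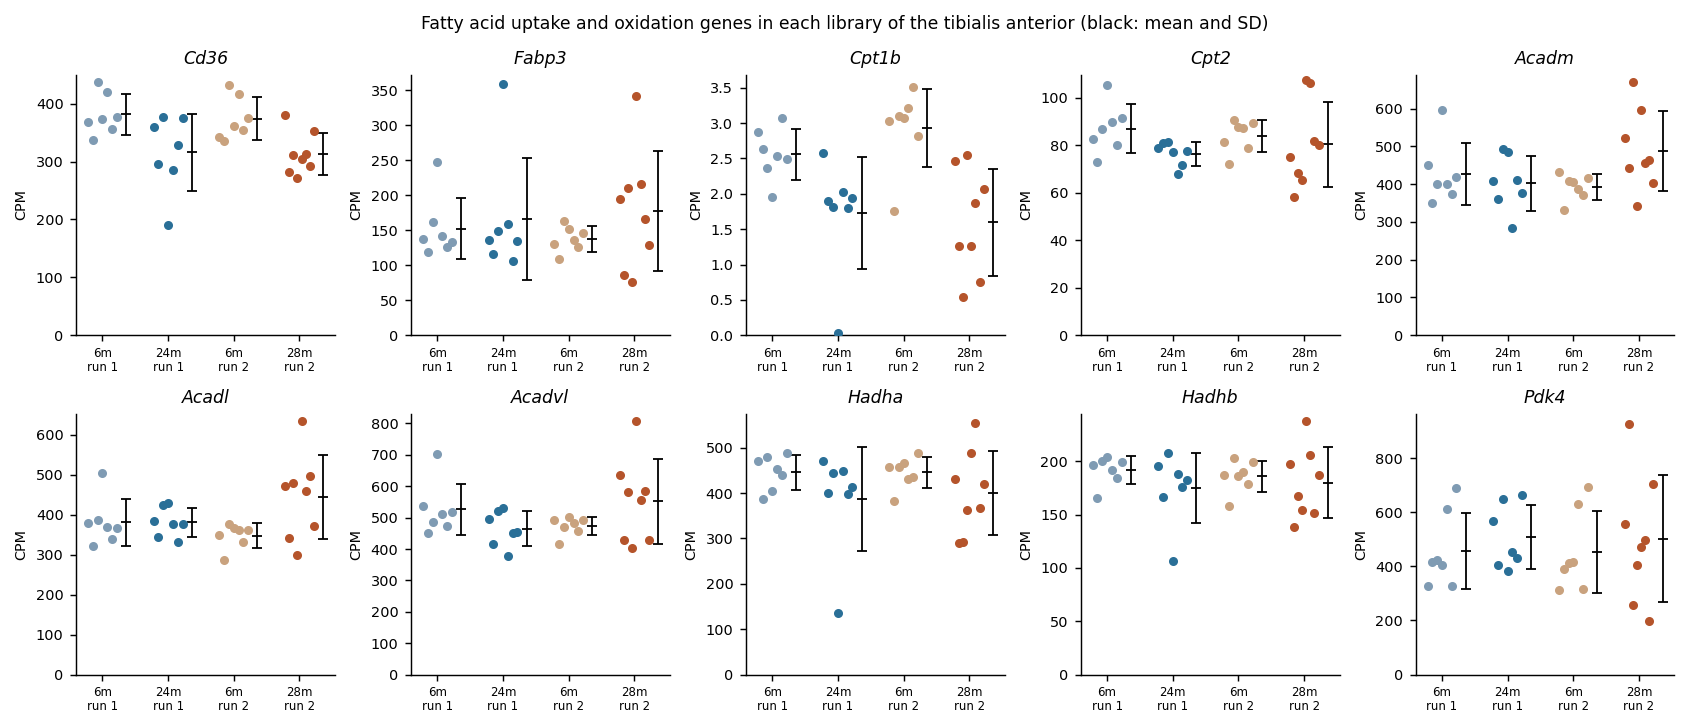
CPM (counts scaled to the size of a library, on 1 TMM scale over all 29 libraries) of the 10 genes, 1 point for each library, in the 6m and 24m libraries of run 1 and the 6m and 28m libraries of run 2; the black bar is the mean and SD of the group (n = 7, 7, 7 and 8). The 28m mice spread more widely than the 6m libraries beside them, and Cpt1b lies far below the others, under 4 CPM in every library.

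**Figure D2:**
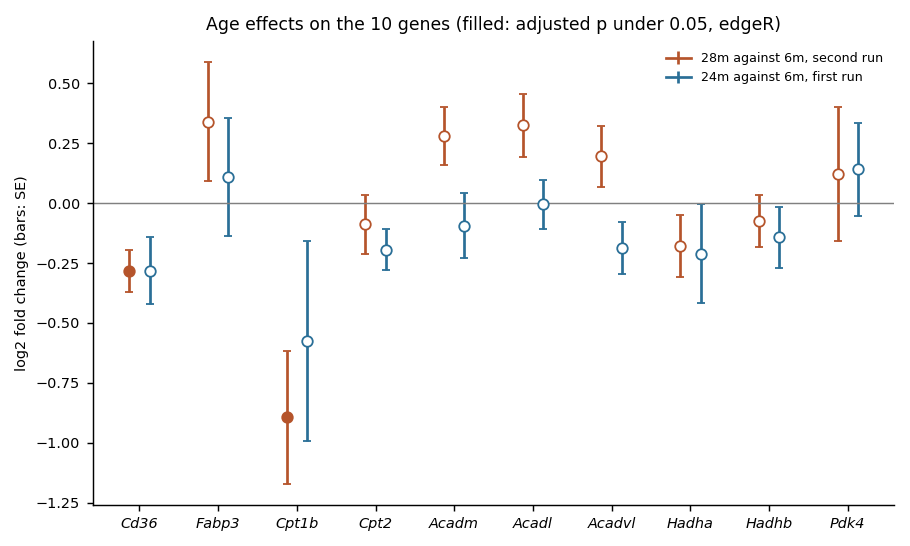
Log2 fold change of each gene with its SE, 28m against 6m in the second run and 24m against 6m in the first run; filled points are called at an adjusted p under 0.05. The filled points are Cd36 (-0.28) and Cpt1b (-0.89) at 28m.

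The levels of the 10 genes can be ranked when counts are divided by transcript length (CPM per kb of the principal transcript). In the 6m libraries of the second run the mean was 218 ± 13.7 (SD, n = 7, as for the values that follow) for Acadvl, 192 ± 16.4 for Acadm, 181 ± 15.9 for Acadl, 167 ± 21.9 for Fabp3, 130 ± 43.2 for Pdk4, 111 ± 8.39 for Hadha, 110 ± 11.0 for Cd36, 90.8 ± 7.22 for Hadhb, 35.3 ± 2.84 for Cpt2 and 1.01 ± 0.192 for Cpt1b. The acyl-CoA dehydrogenases and Fabp3 thus stood highest and the carnitine palmitoyltransferases lowest. What the Cpt1b row holds is uncertain, for the reason given below, so its place may not be the level of its transcript. Neighbours in this order from Acadvl to Hadhb had ranges that overlapped, whereas Cpt2 lay below all of them in every library and Cpt1b below Cpt2.

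Cd36, the membrane fatty acid transporter, was lower at 28m. Its gene lies on chromosome 5 of GRCm38 (mm10) at 17781690-17888801 on the minus strand. The 6m libraries of the second run had 335, 361 and 433 CPM (lowest, median and highest) and the 28m mice 271, 307 and 380. Of the 28m mice 6 of 8 lay below every 6m mouse and none lay above, so the groups overlapped in the other 2. The log2 fold change was -0.28 (SE 0.09, adjusted p = 0.0159 by edgeR's quasi-likelihood test, n = 8 and 7). In a limma-voom fit of all libraries with the mouse as a replicate block it was -0.26 with an adjusted p of 0.0654, and with all libraries in 1 edgeR fit -0.26 with an adjusted p of 0.0628, which both end the call. At 24m the values ran from 190 through 328 to 376 CPM against 338, 374 and 438 CPM at 6m, with 4 of 7 mice below every 6m mouse, and the log2 fold change was again -0.28 (SE 0.14, adjusted p = 0.440). The lowest of these was replicate 4, and without it the log2 fold change at 24m was -0.19. The 28m and 24m effects on Cd36 differed by 0.02 (SE 0.16, adjusted p = 0.968).

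The 250 bases before the RefSeq start of Cd36 are shown because they alone among the members' windows hold a direct repeat of the kind that PPAR and RXR, the nuclear receptors of fatty acid metabolism, are known to bind. RefSeq's window for Cd36 (GRCm38.p6, chr5:17835897-17836146, minus strand, 5′ to 3′) lies within the annotated gene but overlaps no annotated exon. Capitals mark, on either strand, AGGTCA as well as GGGCGG, and a pair of AGGTCA copies with 1 base between them and at most 2 mismatches in all.
Cd36: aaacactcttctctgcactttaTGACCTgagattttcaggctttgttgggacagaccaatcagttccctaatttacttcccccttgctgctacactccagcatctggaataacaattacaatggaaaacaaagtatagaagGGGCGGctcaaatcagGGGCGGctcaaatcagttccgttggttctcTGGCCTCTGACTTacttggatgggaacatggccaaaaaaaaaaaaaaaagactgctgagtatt
Over the 250 bases upstream in all 32851 windows, 3.24% held such a pair, 14% held AGGTCA and 32.7% held GGGCGG. Of the 9 members with a window (the table has none for Cpt1b), 1 held the pair, which was Cd36, 3 held AGGTCA (Cd36, Acadm and Acadvl) and 5 held GGGCGG (Cd36, Cpt2, Acadl, Hadha and Hadhb). TCAAGGTCA, the half-site of estrogen-related receptors (0.387% of all windows), CACGTG (6.02%) and TTGTTTAC (1.07%) were found in none of the 9. The windows of Hadha and Hadhb overlap and share bases. These are matches of letters and not sites of binding.

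Whole muscle also holds blood vessels, fat and immune cells, in which Cd36 is known to be abundant, and in such samples fewer cells of a type and less RNA per cell cannot be told apart. Of 10 endothelial markers, 6 fell at 28m (Kdr by 1.29, Flt1 by 0.93, Cdh5 by 0.87, Tek by 0.80, Tie1 by 0.63 and Pecam1 by 0.27 on the log2 scale) and 2 rose, Cldn5 (0.73) and Egfl7 (0.48). Their summed level was 525-601 CPM in the 6m libraries and 348-471 CPM at 28m, with no overlap. No endothelial marker was at 0. Over all genes tested at 28m, 22.9% were called lower, 24.3% were called higher and 12.4% had groups without overlap. Against the 6m libraries of the other run 4 of these endothelial markers were called lower and none higher. Of 7 adipocyte markers tested 1 rose, Retn (log2 fold change 1.63), all 7 had values above 0 with a median of 0.93, and the summed level of the 8 listed was 39.6-79.7 CPM at 6m and 31.4-215 CPM at 28m. No adipocyte marker was called by limma-voom (median 0.50) or with the mouse as a replicate block (median 0.52). By DESeq2, with upper-quartile scaling and with all libraries in 1 fit, 2 were called higher. No macrophage marker of 9 tested was called (summed level 65.8-226 CPM at 6m and 90.1-731 CPM at 28m). Leaving out 1 mouse gave 0 to 3 adipocyte markers called higher, with 3 without replicate 4, 6 or 8 of 28m and none without replicate 2 or 7 of 28m or replicate 1, 4 or 7 of 6m. For the macrophage markers it gave 3 higher without replicate 2 of 6m, 1 higher without replicate 3 of 28m and 2 lower without replicate 7 of 28m, where their median log2 fold change went from 0.78 to 0.08. The part of these cells in the Cd36 value was not tested. The skeletal muscle markers Acta1, Ckm, Myh4, Mb, Des and Ttn, which check the labelled tissue, together held 135035-146780 CPM at 6m and 123475-141567 CPM at 28m.

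Fabp3, the cytosolic fatty acid carrier of heart and muscle, was among the most variable of the 10 at 28m. The 6m libraries of the second run had 109, 135 and 163 CPM (lowest, median and highest), and the 28m mice 75.3, 181 and 342 CPM. Of the 8 old mice 5 lay above every 6m mouse and 2 below every one. The log2 fold change was 0.34 (SE 0.25, adjusted p = 0.268), which did not pass the test. At 24m the range was 106-358 CPM with a median of 136 CPM, against a median of 138 CPM in the 6m libraries of that run (119-247 CPM). The log2 fold change of 0.11 (SE 0.25, adjusted p = 0.857) rested on replicate 4, the highest, and became -0.19 without it. Fabp3 (chromosome 4, 130308595-130315463, plus strand) has a transcript of only 823 bases, of which 81 are shared with exons of Zcchc17 on the opposite strand; the strand setting of the counting is not stated.

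Cpt1b encodes the muscle isoform of the outer-membrane carnitine palmitoyltransferase, the rate-controlling step of entry into mitochondria. It had the lowest counts of the 10 by far, 42-91 per library in the 6m mice of the second run and 11-64 at 28m. In CPM, the 6m libraries had 1.76, 3.07 and 3.51 (lowest, median and highest) and the 28m mice 0.538, 1.57 and 2.55. Of the old mice 4 of 8 lay below every 6m mouse and none lay above. The log2 fold change was -0.89 (SE 0.28, adjusted p = 0.0156 by edgeR's quasi-likelihood test). Against the first-run libraries of the same 6m mice it was -0.69 (adjusted p = 0.0694), and with the mouse as a replicate block -1.01 (adjusted p = 0.108), neither of which was called. At 24m 5 of 7 mice lay below every 6m mouse and the log2 fold change was -0.57 (SE 0.42, adjusted p = 0.562), or -0.36 without replicate 4, which had 1 count.

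What the Cpt1b row holds is uncertain. Cpt1b lies on chromosome 15 at 89416405-89425863 on the minus strand, and in the GENCODE annotation 2744 of its exonic bases (81.4%) also belong to Gm44502, a read-through gene on the same strand that is not among the symbols of the count table. Reads that fall on more than 1 gene are not assigned by STAR's gene counting, which the study used, and whether its annotation held this overlap was not tested. Within the 6m mice, the SD of log2 CPM between mice was 0.189 for Cpt1b and that between the libraries of a mouse was 0.272, so the gene was measured no more closely in 2 libraries of a mouse than in different mice.

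Cpt2, the inner-membrane partner that returns the acyl group to coenzyme A (chromosome 4, 107903981-107923610, minus strand), was counted well and did not pass the test at either age. The 6m libraries of the second run had 72.0, 87.2 and 90.4 CPM (lowest, median and highest) and the 28m mice 58.1, 77.5 and 107. Of the 8 old mice 2 lay above and 3 below every 6m mouse, and the log2 fold change was -0.09 (SE 0.12, adjusted p = 0.568). At 24m it was -0.19 (SE 0.09, adjusted p = 0.411), with an unadjusted p of 0.0399, the 1 value under 0.05 among the 10 genes at that age.

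The acyl-CoA dehydrogenases had higher means at 28m without passing the test. Acadm, for medium chains, had 331, 406 and 432 CPM (lowest, median and highest) at 6m and 343, 460 and 671 CPM at 28m, with 6 of 8 old mice above every 6m mouse. Acadl, for long chains, had 286, 361 and 377 CPM at 6m and 300, 466 and 635 CPM at 28m, with 5 of 8 above. Acadvl, for very long chains, had 415, 484 and 502 CPM at 6m and 403, 568 and 809 CPM at 28m, with 5 of 8 above and 1 below. No old mouse lay below every 6m mouse for Acadm or Acadl. The log2 fold changes were 0.28 (SE 0.12, adjusted p = 0.0640) for Acadm, 0.33 (SE 0.13, adjusted p = 0.0516) for Acadl and 0.19 (SE 0.13, adjusted p = 0.219) for Acadvl by edgeR's quasi-likelihood test. Acadl passed by DESeq2 (adjusted p = 0.0465), and with the mouse as a replicate block it was the only gene of the 10 to pass (log2 fold change 0.32, adjusted p = 0.0466). With a trend of each library on gene length and GC content removed, Acadl was at -0.08 (adjusted p = 0.614), Acadm at 0.25 and Acadvl at 0.03.

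At 24m none of the dehydrogenases passed the test. The log2 fold changes there were -0.09 for Acadm, -0.01 for Acadl and -0.19 for Acadvl (adjusted p = 0.765, 0.982 and 0.482 by edgeR). The 28m effect was larger than the 24m effect by 0.39 (SE 0.19) for Acadm, 0.35 (SE 0.17) for Acadl and 0.40 (SE 0.18) for Acadvl, and the adjusted p-values of these differences, 0.414, 0.421 and 0.399, did not pass. By that test 0% of 13455 genes were called, 1611 had an unadjusted p under 0.05, and DESeq2 called 4, none of them among the 10 genes. Of the 10, 2 (Acadm and Acadvl) had an unadjusted p under 0.05. The 6m library of replicate 4 in the first run was the highest of its group for Acadm, Acadl and Acadvl, at 597, 503 and 702 CPM, and the second library of the same mouse had lower values (differences of -0.55, -0.46 and -0.48 in log2 CPM).

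Across mice Acadl and Acadvl moved together (r = 0.92 over 22 mice after the group means were removed, a description of mice that share libraries and scaling). That was the closest pair of the 10, but without replicate 4 of 6m and of 24m it was at 0.91 and Fabp3 and Acadl were closer (0.94). Their bases before the RefSeq start (GRCm38.p6; Acadl at chr1:66863310-66863559 and Acadvl at chr11:70015429-70015678, both on the minus strand, 5′ to 3′) are shown for that reason, with AGGTCA and GGGCGG on either strand in capitals. The Acadl stretch holds copies of GGGCGG and the Acadvl stretch a single AGGTCA, so the windows share none of the motifs searched.
Acadl: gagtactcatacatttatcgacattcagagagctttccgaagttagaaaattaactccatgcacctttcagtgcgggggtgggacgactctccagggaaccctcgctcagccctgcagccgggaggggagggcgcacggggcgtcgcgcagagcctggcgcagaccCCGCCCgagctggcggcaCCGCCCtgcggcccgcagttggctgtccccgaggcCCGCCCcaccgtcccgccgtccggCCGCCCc
Acadvl: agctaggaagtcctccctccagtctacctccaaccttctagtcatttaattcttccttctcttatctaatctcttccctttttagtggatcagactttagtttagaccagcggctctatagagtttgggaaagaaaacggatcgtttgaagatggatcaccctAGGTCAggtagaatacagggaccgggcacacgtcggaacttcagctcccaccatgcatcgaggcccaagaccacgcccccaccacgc
Acadvl (70010183-70015411) shares 1151 exonic bases, 42.9% of its own, with Dvl2 on the opposite strand, which limits its value where counting ignores strand. Acadl lies at 66830839-66863277 and Acadm on chromosome 3 at 153922357-153944632, both on the minus strand, and neither shares exonic bases with another annotated gene.

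Hadha and Hadhb encode the subunits of the trifunctional protein and stand head to head on chromosome 5, Hadha at 30118304-30155162 on the minus strand and Hadhb at 30155248-30184593 on the plus strand. The 85 bases between the annotated genes are given on the plus strand (GRCm38.p6, chr5:30155163-30155247) because the genes are transcribed away from it in opposite directions, with GGGCGG in capitals.
Hadha-Hadhb: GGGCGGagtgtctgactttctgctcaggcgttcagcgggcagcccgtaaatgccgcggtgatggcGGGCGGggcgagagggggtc
The genes moved together over the 22 mice (r = 0.90, or 0.84 over the 20 mice without replicate 4 of 6m and of 24m). Hadha had 383, 458 and 489 CPM (lowest, median and highest) in the second-run libraries of 6m and 289, 394 and 554 CPM at 28m. Hadhb had 158, 187 and 203 CPM at 6m and 138, 178 and 238 CPM at 28m. Old mice lay on both sides of the 6m range for each gene. For Hadha, replicates 2, 3, 4 and 7 of 28m (289, 291, 363 and 368 CPM) lay below every 6m library and replicate 6 (554 CPM) above. The log2 fold changes of Hadha and Hadhb were -0.18 (SE 0.13, adjusted p = 0.258) and -0.07 (SE 0.11, adjusted p = 0.593). The log2 ratio of Hadha to Hadhb counts, which does not depend on library scaling, was 1.26 ± 0.06 (SD, n = 7) at 6m and 1.14 ± 0.19 (SD, n = 8) at 28m, a difference of -0.12 (two-sided exact permutation p = 0.120, 0.207 adjusted over 8 ratio tests).

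At 24m the log2 fold changes were -0.21 (SE 0.21) for Hadha and -0.14 (SE 0.13) for Hadhb, with adjusted p-values of 0.655 and 0.632 by edgeR. A single mouse, replicate 4, had 136 CPM of Hadha and 107 CPM of Hadhb, where the medians of its group were 414 and 182 CPM. Without it the log2 fold changes were -0.06 and -0.05. That library stood apart across all genes as well: the SD of its log2 deviations from the rest of its group was 1.16, against at most 0.665 in any other library, and its deviations ran with exonic length (Spearman's rho = -0.41 across 13325 genes, which are not independent). The first-run library of replicate 4 of 6m, on the other side of this comparison, had a rho of -0.55 and an SD of 0.594.

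Pdk4, the kinase that holds back pyruvate dehydrogenase (chromosome 6, 5483351-5496309, minus strand), differed more between mice than between ages. The 6m libraries of the second run had 313, 414 and 695 CPM (lowest, median and highest) and the 28m mice 199, 485 and 928 CPM, with 2 of 8 above and 2 of 8 below every 6m mouse. The log2 fold change was 0.12 (SE 0.28, adjusted p = 0.736), and it became -0.06 without replicate 2, the highest of the old mice. At 24m all 7 mice (383-664 CPM) lay inside the 6m range of that run (326-689 CPM), with a log2 fold change of 0.14 (SE 0.19, adjusted p = 0.753). The 28m effect minus the 24m effect had an SE of 0.36 around a value near 0 (adjusted p = 0.999).

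Each mouse of 6m was prepared again for the second run, which separates differences between mice from differences between libraries. For Pdk4 the SD of log2 CPM was 0.432 between mice and 0.0394 between the libraries of a mouse, a ratio of 11.0, the highest of the 10. Replicates 5 and 7 were high in both runs (613 and 633 CPM, and 689 and 695 CPM), while replicate 1 was low in both (326 and 313 CPM). Cd36 was repeated with similar closeness (0.0311 between libraries, a ratio of 4.33). For Fabp3, Acadm, Acadl and Acadvl the ratio was 0.995-1.29, and without replicate 4 it was 1.43-3.83. Fabp3 in replicate 4 had 247 CPM in the first run and 152 CPM in the second, the largest difference of the 70 repeat pairs of the 10 genes (-0.70 in log2 CPM). No gene of the 10 was called between the runs in a fit with the mouse as a block, in which 0% of 13483 genes were called (1087 at an unadjusted p under 0.05, and 0 by DESeq2). The 1 member with an unadjusted p under 0.05 was Acadvl (log2 fold change -0.13, adjusted p = 0.508 by edgeR).

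**Figure D3:**
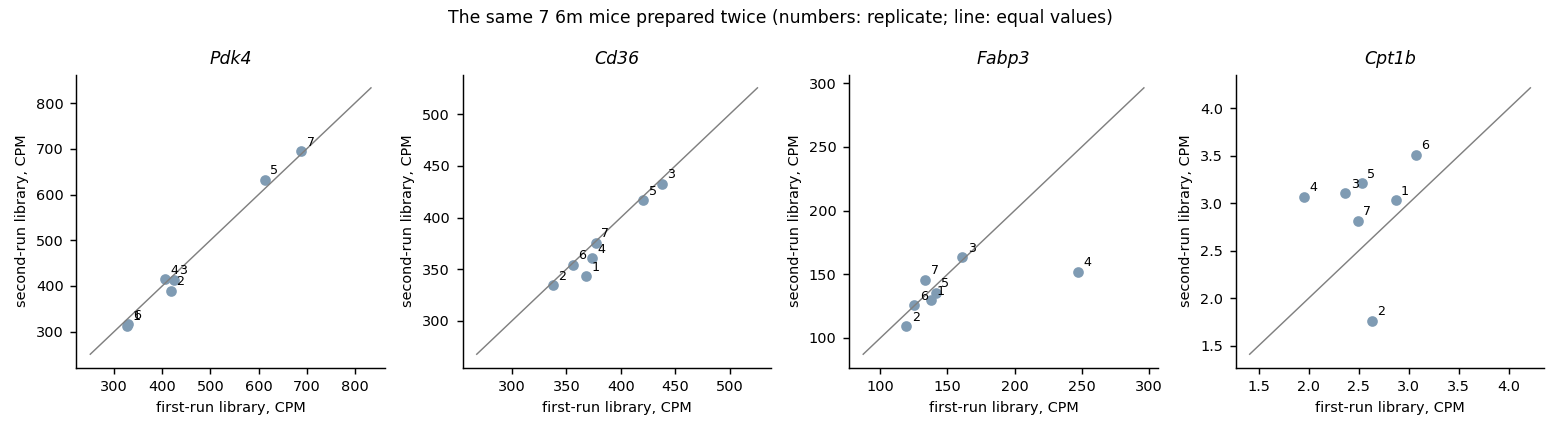
CPM of Pdk4, Cd36, Fabp3 and Cpt1b in the first-run library (horizontal axis) and the second-run library (vertical axis) of the same 7 mice of 6m, with the line of equal values. Pdk4 and Cd36 follow the line, Fabp3 departs from it in replicate 4, and Cpt1b lies above it in 6 of the 7 mice.

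The old mice differed from each other more than the 6m mice did. The SD of log2 CPM was larger at 28m than at 6m for 10 of the 10 genes, as it was for 87.7% of all genes tested, and the median ratio of the SDs was 2.5 against 2.07 over all genes. It was highest for Fabp3 (0.729 against 0.193) and Acadvl (0.343 against 0.0935), and lowest for Cd36 (0.162 against 0.140). At 24m the SD was larger for 6 of 10, against 83.5% of all genes, and for 7 of 10 without replicate 4 of both groups. No gene of the 10 had groups without overlap at 28m, where 12.4% of all genes did, nor at 24m, where 0.588% did. Among the 28m mice, replicate 5 had the highest value of Fabp3, Cpt2, Acadl, Acadvl and Hadhb, and replicate 4 the lowest of Cd36, Fabp3, Acadm, Acadl and Acadvl. Replicate 5 lay 1.33 above the 6m mean for Fabp3 and 0.87 above for Acadl in log2 CPM, and replicate 4 lay at -0.86 and -0.21. Replicates 3 and 7 were lowest for both Cpt1b and Pdk4. The deviations of the 28m libraries from their group ran with exonic length in opposite directions (rho = -0.31 in replicate 5, -0.40 in replicate 3 and -0.42 in replicate 7, and 0.47 in replicate 4 and 0.52 in replicate 8), and the part of this in the members' spread was not tested.

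**Figure D4:**
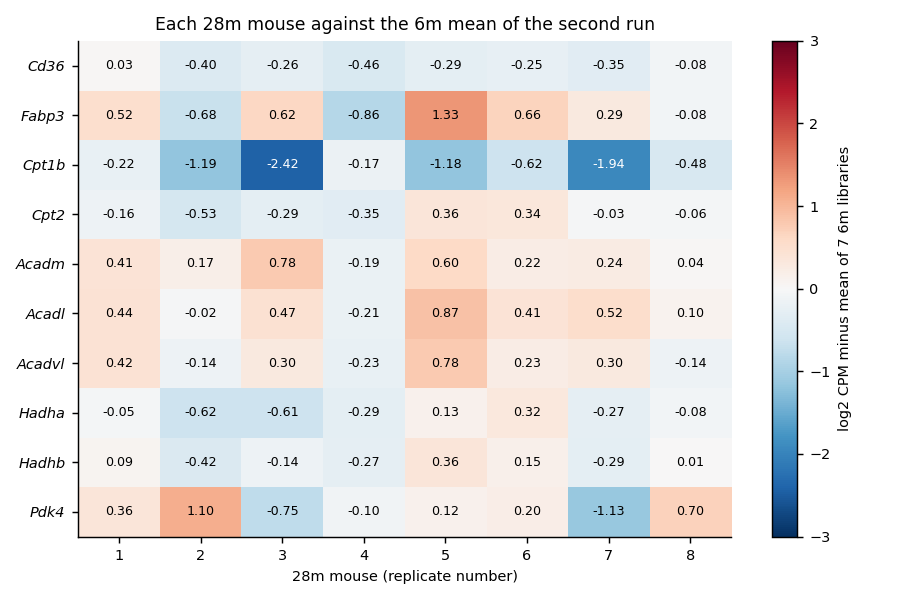
Log2 CPM of each of the 10 genes (rows) in each of the 8 28m mice (columns) minus the mean of the 7 6m libraries of the second run, red above and blue below that mean. Fabp3 and the acyl-CoA dehydrogenases are high in replicate 5 and low in replicate 4, Cpt1b is below the mean in all 8 mice, and Pdk4 runs from -1.13 in replicate 7 to 1.10 in replicate 2.

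Over the 22 mice the members fell into no single pattern. Hadhb followed the mean of the other 9 most closely (r = 0.94) and Fabp3 least (r = -0.06). Without replicate 4 of 6m and of 24m Fabp3 was at 0.45, and Cpt1b (0.09) was the least alike. Cpt1b and Hadha moved together (r = 0.88, or 0.62 without the replicates 4), Fabp3 and Acadl did so (r = 0.89, or 0.94), and Fabp3 and Cpt1b ran in opposite directions (r = -0.58, or -0.31 without the replicates 4). The genes outside the 10 whose log2 CPM was most like the members' mean were Etfdh (r = 0.91), Hsdl2 (0.85), Tmem44 (0.84), Dlst (0.83) and Tbrg4 (0.81). Etfdh passes electrons from the acyl-CoA dehydrogenases to ubiquinone, and Dlst is a subunit of the oxoglutarate dehydrogenase complex. Without the replicates 4, 4 of these 5 were still among the 5 most alike, and Etfdh was still at the top (0.88).

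Ratios of paired genes within a library gave a mixed picture for the Cpt1b row. What that row holds is uncertain, as said above, so its ratios may not be those of the muscle isoform. The log2 ratio of Cpt1b to Cpt2 was -4.85 ± 0.26 (SD, n = 7) at 6m and -5.77 ± 0.84 (SD, n = 8) at 28m, a difference of -0.92 (two-sided exact permutation p = 0.0131, 0.0522 adjusted over 8 ratio tests). That of Cpt1b to Cpt1a, the liver isoform, was -1.94 in the 6m libraries of the second run. It differed by -0.55 at 28m (exact permutation p = 0.0559, adjusted 0.149). At 24m the ratio of Cpt1b to Cpt1a differed by -1.37 (exact permutation p = 0.00583, adjusted 0.0466), a difference that was -0.81 with an adjusted p of 0.0522 without replicate 4 of 24m. The ratio of Pdk4 to Pdk2, another kinase of the same complex, differed by 0.27 at 28m and 0.46 at 24m (exact permutation p = 0.347 and 0.129).

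Other genes of the pathway were counted in 7 lists of 78 genes, all tested. At 28m 14 of the 78 rose and 17 fell, 31 in all, against 47.3% of all genes, and at 24m none was called. Of the genes of mitochondrial oxidation other than the members 7 of 15 rose, none fell and 8 were not called, where 24.3% of all genes were called higher. Their median log2 fold change was 0.30, against 0.01 for all genes. The largest were Etfb, a subunit of the electron transfer flavoprotein that receives electrons from the acyl-CoA dehydrogenases (0.76, SE 0.18, adjusted p = 0.00343 by edgeR), and Echs1, the short-chain enoyl-CoA hydratase (0.62, SE 0.13, adjusted p = 0.00171). Etfb had 143-188 CPM at 6m and 170-411 CPM at 28m, and Echs1 had 85.7-122 CPM at 6m and 123-233 CPM at 28m, so that the groups of Echs1 did not overlap. With the trend on length and GC content removed 4 of the 15 rose and 1 fell, with a median log2 fold change of 0.13. Against the 6m libraries of the other run 2 rose, with a median of 0.19.

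Of 16 nuclear receptors, coactivators and targets of the pathway 7 fell, 1 rose and 8 were not called, where 22.9% of all genes were called lower. Their median log2 fold change was -0.15. Rxra, the partner of the PPAR receptors, fell by 0.83 (SE 0.16) and Esrrb, an estrogen-related receptor, by 0.81 (SE 0.18) on the log2 scale, with adjusted p-values of 0.00126 and 0.00262 by edgeR. Rxra had 216-272 CPM at 6m and 81.4-213 CPM at 28m, and Esrrb 9.39-13.2 and 4.21-9.22 CPM, neither with any overlap. Ppara (-0.73), Ppard (-0.64), Esrrg (-0.47), Ppargc1a (-0.44) and the receptor Vldlr (-0.66) were the others that fell, and are named here after their values were seen. Pparg, the PPAR of fat cells, rose by 0.55 (adjusted p = 0.0304) from a level of 2.30-4.06 CPM. In the other settings tried, 5 to 7 of the 16 fell.

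In the remaining lists the called genes went both ways. The counts below stand beside 24.3% of all genes called higher and 22.9% called lower at 28m. For uptake and activation Gpihbp1, the endothelial anchor of lipoprotein lipase (0.80), and Fabp4, the carrier of fat and endothelial cells (0.76), were the largest of 3 of 11 that rose, and Acsl1, the main acyl-CoA synthetase of muscle, was the 1 that fell (-0.47, adjusted p = 0.0136). Lipoprotein lipase itself (Lpl) was at -0.03 (adjusted p = 0.850). In the carnitine shuttle 3 of 7 fell, with Acacb, which makes the CPT1 inhibitor malonyl-CoA (-0.81), and the carnitine carrier Slc22a5 (-0.49) the largest, and Slc25a20, the mitochondrial carnitine-acylcarnitine carrier, rose (0.26, adjusted p = 0.0348). Among the peroxisomal genes Acaa1a, a thiolase, rose (0.48) and the transporter Abcd2 fell by 0.29 on the log2 scale. None of 10 genes of lipid droplets and lipolysis was called, with values from -0.16 to 0.27. Around pyruvate dehydrogenase, 4 of 11 fell, led by the phosphatase regulator Pdpr (-1.75, SE 0.58, adjusted p = 0.0225) and the catalytic subunit gene Pdha1 (-0.37), and the phosphatase Pdp1 rose (0.63, adjusted p = 0.00167). The count that fell was 2 without replicate 1, 4 or 7 of 6m or replicate 2 of 28m and with the trend on length and GC content removed, and 1 against the 6m libraries of the other run, where it was also 1 for the carnitine shuttle. The fibre-type markers moved beside these lists: 4 of 8 slow-fibre genes rose at 28m, 5 of 9 fast-fibre genes rose and 1, Myh4, fell by 0.48 on the log2 scale, and Myh2 was at -0.37 (adjusted p = 0.351). The fast-fibre genes that rose were 2 with the trend on length and GC content removed (median log2 fold change 0.01, from 0.47), 2 with the mouse as a replicate block and 1 against the other run, and the slow-fibre genes that rose were 4, 2 and 2 in these settings. Their part in the values of the oxidation genes was not tested. Of the called genes named here from these lists by the fixed rule, Fabp4, Slc25a20, Acacb, Etfb, Acaa1a, Pdpr, Pdha1 and Pparg were not called against the 6m libraries of the other run, and Acsl1, Etfb, Abcd2 and Pparg not with the trend on length and GC content removed. With the mouse as a replicate block Acaa1a (adjusted p = 0.0507), Abcd2 (0.0560) and Pdha1 (0.103) were not called, and with all libraries in 1 edgeR fit Abcd2 (0.0514) and Pdha1 (0.0978) were not. Slc25a20 and Pdha1 were each called in 16 of 27 alternative settings and Pparg in 18 of 27.

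**Figure D5:**
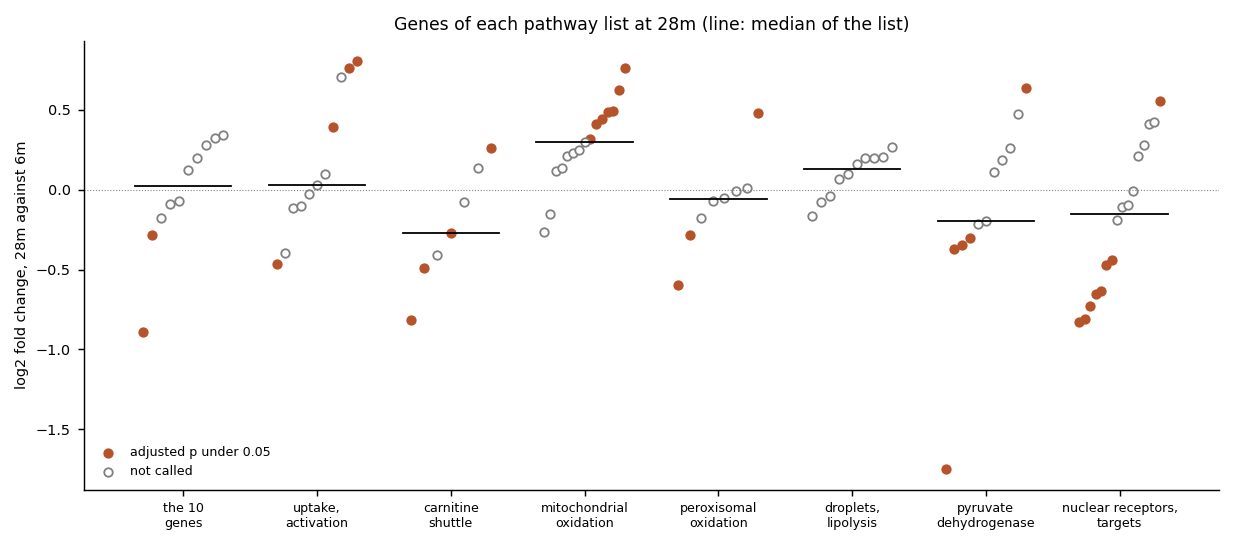
Log2 fold change at 28m against 6m of the 10 genes and of the genes in 7 pathway lists, 1 point a gene, filled where the adjusted p was under 0.05, with the median of each list as a line. The filled points of mitochondrial oxidation are all above 0, and those of the nuclear receptor list are below 0 except Pparg.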

How the data were processed

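Total RNA was extracted with Trizol, poly-A RNA was enriched, and libraries were made with the NEBNext Ultra II kit. Single-end reads of 75 bases were aligned by the authors to mm10 with STAR 2.5.4b, and the deposited table holds raw read counts per gene symbol from STAR's gene counting, without normalization. The strand setting is not stated, and no column of the table lacked a mapped sample. Per the submitters' processing notes, bcl2fastq 2.20, R 3.5.1 and DESeq2 1.22.2 were also used.

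Counts were tested with edgeR 4.0.16 in R 4.3.3 (filterByExpr, TMM, quasi-likelihood F test, Benjamini-Hochberg adjustment over all genes, threshold 0.05). The 28m effect was set against the 24m effect in 1 fit of 29 libraries, and the 6m runs were compared with the mouse as a block. Pairing of the 6m libraries comes from their titles and the study's methods: deviations of the libraries of a mouse from their group means correlated at 0.218 to 0.814 across genes, and 7 of 7 libraries were most like their own mouse. SE values were derived from the F test. CPM values used TMM over all libraries, and log2 CPM in the correlations a prior count of 2. Ratios used counts plus 0.5, with two-sided exact permutation tests (scipy 1.17.1) over 6435 assignments at 28m and 3432 at 24m. Alternatives were DESeq2 1.42.0, limma-voom 3.58.1 and those of the closing section. Scripts were tested on simulated data.

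Positions come from GENCODE M21 (GRCm38), and promoter windows from RefSeq (GRCm38.p6). Lists of pathway genes, markers and motifs were chosen with earlier results of these data known, as were the 10 members. From each pathway list the text names the called genes at 28m, at most 2 higher and 2 lower with the largest change, and any gene called at 24m or in the difference. Lengths for CPM per kb are those of 1 principal transcript a gene.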

Additional observations from a re-analysis of the deposited data

Results flagged for a closer look

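Within each group of libraries, 9 of 40 tests of the 10 genes found a library whose gap to its nearest neighbour was large for the range of the group (Dixon's test at 95%), where chance gives about 1 in 20. Replicate 4 of 6m in the first run was highest for Fabp3 (247 CPM), Acadm (597 CPM), Acadl (503 CPM) and Acadvl (702 CPM). Replicate 4 of 24m was highest for Fabp3 (358 CPM) and lowest for Hadha (136 CPM), Hadhb (107 CPM) and Cpt1b (0.0350 CPM, a single count). In the second run, replicate 2 of 6m was lowest for Cpt1b (1.76 CPM), where the first-run library of the same mouse had 2.63 CPM. The second library of the 6m mouse in replicate 4 did not stand apart for any of the 10 genes.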

How the results depend on the processing

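At 28m, Cd36 and Cpt1b were both called in 15 of 15 fits that left out 1 mouse. The number of the 10 genes called was 2 and became 4 with upper-quartile scaling (Acadm and Acadl besides), 3 by DESeq2 and with at least 10 counts in every library (Acadl besides), 1 against the 6m libraries of the other run (Cd36) and 1 with the mouse as a replicate block (Acadl); leaving out 1 mouse at a time gave 2 to 4, with 4 without replicate 4 or 8 of 28m. With all libraries in 1 fit it was again 2, but Cpt1b and Acadl, since Cd36 lost its call. Between the 6m runs, leaving out 1 mouse gave 0 to 1 (Acadvl, without replicate 4, when 200 genes of all were called). At 24m and for the difference of the age effects, 0 of the 10 were called in every setting run, although 1657 genes of all were called in the difference without replicate 4 of 24m.

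Values that changed sign had not been called in the main fit, but Acadl at 28m was called in other settings named above. Removing the trend on length and GC content gave log2 fold changes of -0.25 for Fabp3, -0.0779 for Acadl, 0.21 for Hadha and 0.0689 for Hadhb at 28m, and -0.19 for Fabp3 at 24m. Pdk4 at 28m ran from -0.0551 to 0.25 over fits without 1 mouse, Fabp3 at 24m from -0.19 to 0.25 and Acadl at 24m from -0.0389 to 0.0623. Without replicate 4 of both 6m and 24m (chosen after seeing the data), Fabp3 at 24m was at -0.0379 and Acadl at 0.0452. Acadm at 24m was at 0.0132 against the 6m libraries of the other run. Acadl at 24m, at -0.01, was at 0.0574 with total counts, 0.0082 with at least 10 counts in every library, 0.11 against the other run, 0.0031 with all libraries in 1 fit and 0.0087 with the mouse as a replicate block. The causes were not tested.

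The ratio of Cpt1b to Cpt1a at 24m ran from -1.58 to -0.81 without 1 mouse and lost its call in 11 of these fits. At 28m that ratio ran from -0.70 to -0.45 (called in 1 fit), and Cpt1b to Cpt2 from -1.08 to -0.76 (called in 3). Dividing by length shifts both groups alike and leaves these differences as they were. With 1 to 91 counts per library, depth limits what can be said of Cpt1b.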
